A study of Mus musculus with 2 samples.

Results

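The 10 enzymes described here make, phosphorylate or consume nicotinamide adenine dinucleotide (NAD), and they were chosen by their gene symbols: Nampt, Nmnat1, Nmnat2, Nmnat3, Nadk, Nadk2, Nnt, Sarm1, Parp1 and Cd38. They are 10 of the 30905 genes of the table and take up 11 gene entries, since Nnt has 2. Nuclei came from frozen cerebral cortex of untreated C57BL/6 mice on a normal diet, 1 sample from mice aged 18 months and 1 from mice aged 2 months, each pooled from 3 mice (the series text gives 18 to 22 and 2 to 3 months), and were profiled with droplet-based single-nucleus RNA sequencing. Every RNA molecule carries a unique molecular identifier (UMI), so a count is a count of molecules. The barcodes end in 1 of 2 suffixes, called library 1 and library 2 here, and no label says which suffix belongs to which age. Ages were therefore not compared, and values of the libraries are given side by side. Each library is unreplicated, so no test was made, and every interval is an exact 95% Poisson interval of a count (Clopper-Pearson for a share of nuclei) that covers counting error only. Where no UMI was counted, a bound marked 3 counts is the level that 3 UMIs would give. It lies below the upper end of the exact interval.

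NAD carries electrons in metabolism and is also spent as a substrate by signalling enzymes, so cells rebuild it from the nicotinamide that these enzymes release. NAMPT turns nicotinamide into nicotinamide mononucleotide, and the NMNAT enzymes turn that into NAD in the nucleus (NMNAT1), in the cytosol and at Golgi membranes (NMNAT2) or in mitochondria (NMNAT3). In neurons NMNAT2 is a short-lived axonal survival factor, and SARM1 is the NAD-cleaving enzyme that executes axon degeneration once NMNAT2 is lost.

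Nuclei were grouped into 10 classes, each of 50 nuclei or more per library, and names mean that a cluster of nuclei carries the markers of that class. There were 8286 kept nuclei in library 1 and 7954 in library 2. They included 4309 and 4366 excitatory neurons, 719 and 612 inhibitory neurons, 391 and 232 striatal projection neurons, 445 and 428 astrocytes and 894 and 374 oligodendrocytes. There were 132 and 156 oligodendrocyte precursors, 232 and 225 microglia, 157 and 290 endothelial nuclei, 64 and 83 pericytes with smooth muscle and 175 and 188 fibroblasts. Clusters with markers of striatum and hippocampus were present although the label is cortex. Unnamed clusters held 725 and 865 nuclei and are in no class, and 19 barcode sequences occur in both libraries. A level is given as CPM, the UMIs of a gene per 1000000 UMIs of its class and library, so the share of a class in the tissue does not enter it. Neuronal transcripts occur in every class: 12 of them made up 3.65% and 3.95% of UMIs in excitatory neurons, 2.18% and 1.97% in microglia and 1.22% and 1.06% in endothelial nuclei. Ratios of Nmnat2 and Sarm1 to their excitatory level are set against these transcripts below. Because the genes differ in length, CPM values are compared between classes and not between enzymes.

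Over all barcodes the enzymes ranged from 31060 UMIs for Nmnat2 to 24 for Nnt. Between them were Nadk with 4298, Parp1 with 3294, Nampt with 2824, Nadk2 with 1950, Sarm1 with 1281, Nmnat3 with 1156, Nmnat1 with 495 and Cd38 with 291. All 10 reached the minimum of 20 UMIs over the compared classes, Nnt with exactly 20. In library 1, 3 of the 10 had their highest level in a neuron class, 4 in a glial class and 3 in a vascular class. Over all 18534 genes tested those shares were 18.8%, 38.1% and 43.1%. In library 2 the counts were 3, 3 and 4, beside 15.5%, 42.1% and 42.4% of all genes. Nnt enters through 3 UMIs in microglia of library 1 and 1 UMI in striatal projection neurons of library 2. Without Nnt the glial count of library 1 was 3 and the neuron count of library 2 was 2. The highest class was the same in both libraries for 6 of the 10 (Nmnat1, Nmnat2, Nmnat3, Nadk, Nadk2 and Sarm1), beside 43.3% of all genes. These counts are too small to set the enzymes apart from other genes, and the description below goes enzyme by enzyme.

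**Figure D1:**
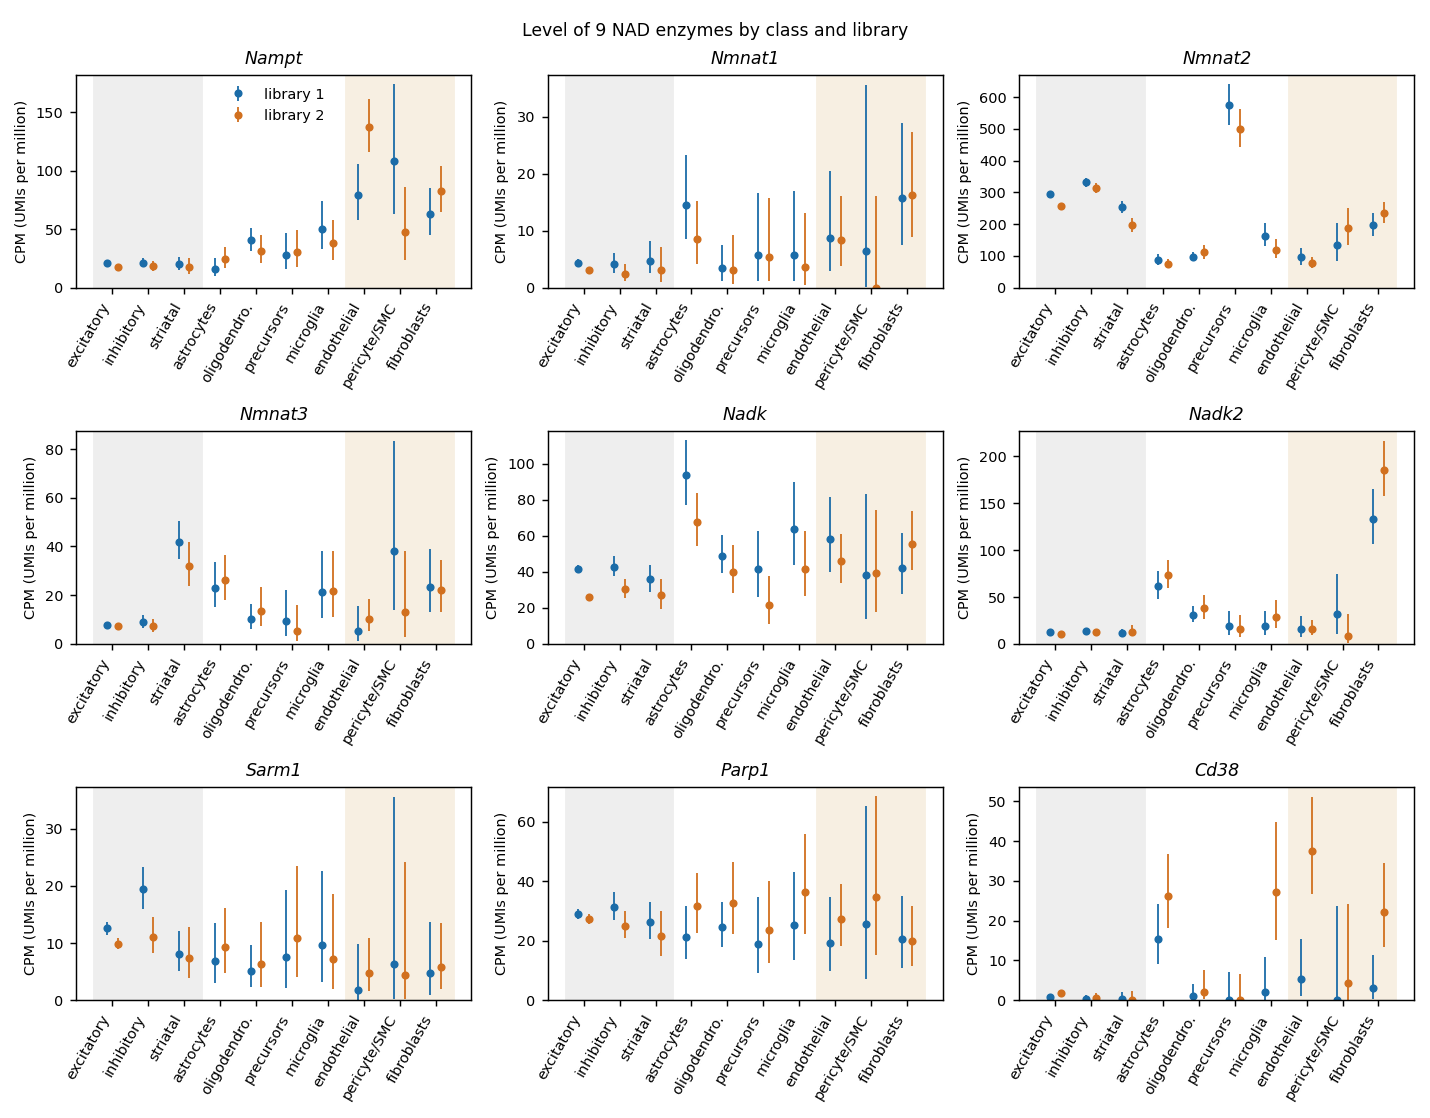
CPM of 9 enzymes (y axis, each panel with its own scale) in 10 classes (x axis) for library 1 in blue and library 2 in orange. Points are levels, bars are exact 95% Poisson intervals, grey shading marks neuron classes and tan shading vascular classes. Nmnat2 is highest in precursors, Nadk2 in fibroblasts and Nmnat3 in striatal projection neurons, whereas Parp1 is nearly even and Cd38 is near 0 in neurons.

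The genes lie apart in the genome (build mm10, GENCODE vM21), and the annotation behind the counts may differ. Nampt is at chr12:32819545-32853349, Nmnat1 at chr4:149467572-149485202, Nmnat2 at chr1:152954993-153119261 and Nmnat3 at chr9:98287435-98420438. Nadk is at chr4:155562378-155591001, Nadk2 at chr15:9071260-9110891, Sarm1 at chr11:78472330-78497754, Parp1 at chr1:180568924-180601254 and Cd38 at chr5:43868553-43912375. Nnt is at chr13:119335448-119408997. Nmnat1, Nmnat2 and Cd38 have an annotated gene on the opposite strand inside them with no shared exonic base. Whether the counting used strand is not given in the sources used here.

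RefSeq promoters on build GRCm38.p6 were matched for 8 of the 10 enzymes. Windows of 250 bases before the transcript start are shown for 3 of them, Nampt, Nmnat3 and Parp1. Nampt, like Nmnat1 and Nadk2, was highest in a vessel class in each library. Nmnat3 was highest in striatal projection neurons, and Parp1 was the most even. CpG dinucleotides are in capitals, each sequence runs 5′ to 3′, and all 3 lie on the plus strand. None holds an annotated exon of its own gene. The Nampt window is chr12:32820085-32820334, the Nmnat3 window chr9:98296320-98296569 and the Parp1 window chr1:180568641-180568890.
Nampt: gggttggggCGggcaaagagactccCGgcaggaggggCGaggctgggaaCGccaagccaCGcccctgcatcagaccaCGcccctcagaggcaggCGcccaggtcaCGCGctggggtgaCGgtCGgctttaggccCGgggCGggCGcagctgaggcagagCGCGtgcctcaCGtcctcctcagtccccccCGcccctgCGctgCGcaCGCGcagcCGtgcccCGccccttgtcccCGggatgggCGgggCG
Nmnat3: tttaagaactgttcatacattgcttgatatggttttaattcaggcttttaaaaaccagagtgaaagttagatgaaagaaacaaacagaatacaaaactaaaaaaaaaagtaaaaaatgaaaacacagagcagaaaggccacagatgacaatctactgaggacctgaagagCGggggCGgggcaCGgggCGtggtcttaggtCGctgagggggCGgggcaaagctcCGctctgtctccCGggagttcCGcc
Parp1: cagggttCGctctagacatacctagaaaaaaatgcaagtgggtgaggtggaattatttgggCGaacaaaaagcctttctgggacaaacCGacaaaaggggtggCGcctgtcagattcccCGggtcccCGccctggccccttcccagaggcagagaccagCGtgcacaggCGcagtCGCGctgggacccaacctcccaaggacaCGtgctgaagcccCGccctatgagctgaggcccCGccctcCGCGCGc
Nampt has 27 CpGs at a GC content of 75.6%, and 92.4% of all 32851 promoter windows of this length have at most that many CpGs. Parp1 has 16 and Nmnat3 has 9, beside a median of 6 over all windows. The GC box GGGCGG, searched on both strands, occurs 5 times in Nampt, 3 times in Parp1 and 2 times in Nmnat3, and 32.7% of all windows hold at least 1. The E-box CACGTG occurs 1 time in Parp1, and 6.02% of windows hold it. Both motifs contain the letters CG, so they overlap with the CpG counts. The Cd38 window, which is exonic in GENCODE and is not printed, has 1 CpG, and 18.8% of windows have no more than 1. A match is a description of letters and no evidence of binding.

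Nampt transcripts, for the rate-limiting step of salvage, were most abundant in the vascular classes. The endothelial level was 79.1 CPM in library 1 (45 UMIs, 57.7 to 106) and 137 CPM in library 2 (146 UMIs, 116 to 161). In fibroblasts it was 62.8 CPM (44.8 to 85.5) and 82.3 CPM (64.3 to 104). Pericytes with smooth muscle held 109 CPM (63.2 to 174) and 47.9 CPM (23.9 to 85.6), from only 17 and 11 UMIs. Microglia followed at 50.2 and 38.0 CPM and oligodendrocytes at 40.4 and 31.6 CPM. The neuron classes lay between 17.4 and 21.5 CPM in either library, and astrocytes held 16.2 and 24.7 CPM. A shallow unnamed cluster, 533 and 736 nuclei at a median of 2267 UMIs, had markers that scored highest for excitatory neurons. It held 39.0 CPM (28.4 to 52.4) and 48.6 CPM (38.9 to 59.9) of Nampt and is not part of the excitatory level used here. The endothelial level was 3.68 times the excitatory level in library 1 and 7.85 times in library 2, and these intervals do not overlap. After each nucleus was thinned to 1500 UMIs, the endothelial share with a Nampt UMI was 11.7% (6.98 to 18.1) and 14.7% (10.8 to 19.5), beside 3.06% and 2.59% of excitatory neurons. Without thinning the shares were 21.7% and 23.1% beside 16.3% and 14.2%, at median depths of 2490 and 2628.5 UMIs beside 7855 and 8439.5.

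The vessel classes were not uniform for Nampt. In library 2 the endothelial cluster led by Slco1a4, Flt1 and Mecom held 161 CPM (136 to 190), and the smaller one led by Eln and Bmx held 34.1 CPM (13.7 to 70.3). In library 1 they held 79.4 and 76.0 CPM, the latter from 4 UMIs in 18 nuclei, so the contrast could not be seen there. Of the fibroblast clusters, the one led by Bnc2 and Slc47a1 held 77.5 CPM (44.3 to 126) and 124 CPM (92.0 to 164). The one led by Ranbp3l, Slc6a20a and Ptgds held 55.7 CPM (35.7 to 82.9) and 47.0 CPM (29.4 to 71.1). Those intervals overlap in library 1 and not in library 2. With a mitochondrial limit of 1% the nuclei named endothelial, 60 and 63 of them, held 40.3 and 48.0 CPM of Nampt. Those nuclei also held 145 and 228 CPM of Nadk2, beside 15.8 and 15.9 CPM in the endothelial class described here, so that setting drew the class differently.

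**Figure D2:**
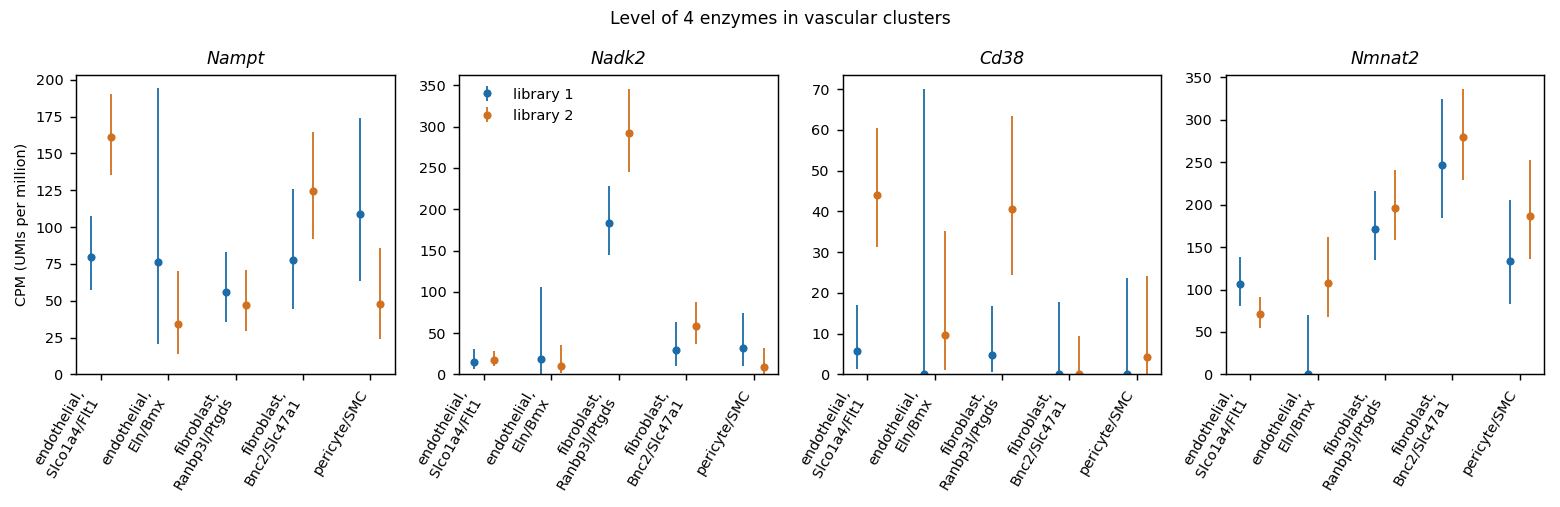
CPM of 4 enzymes (y axis) in the 2 endothelial clusters, the 2 fibroblast clusters and pericytes with smooth muscle (x axis), library 1 in blue and library 2 in orange, with exact 95% Poisson intervals. Nadk2 is highest in the fibroblast cluster led by Ranbp3l and Ptgds in both libraries, and Cd38 is seen mainly in library 2.

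Nmnat2, the axonal NAD synthase, was highest in oligodendrocyte precursors, the dividing glia that can form oligodendrocytes. Their level was 574 CPM (304 UMIs, 511 to 642), and in library 2 501 CPM (278 UMIs, 443 to 563). That was 1.95 and 1.94 times the excitatory level, and the interval lay above those of all 9 other classes in each library. In precursors the 12 neuronal transcripts had a median of 0.289 and 0.286 of their excitatory level. Inhibitory neurons held 332 CPM (317 to 347) and 314 CPM (298 to 330), excitatory neurons 293 CPM (288 to 299) and 258 CPM (253 to 262), and striatal projection neurons 253 CPM (234 to 272) and 197 CPM (176 to 220). These neuron intervals do not overlap each other within a library, so the order inhibitory, excitatory, striatal held in both for whole classes. It did not hold cluster by cluster. Inhibitory clusters ran from 290 and 289.5 CPM in Sst interneurons to 375 and 359 CPM in Vip and Lamp5 interneurons. Excitatory clusters ran from 219 to 332 CPM in library 1 and from 205 to 317 CPM in library 2. In the thinned nuclei, 49.6% (40.8 to 58.5) and 50.6% (42.5 to 58.7) of precursors had a Nmnat2 UMI, beside 34.1% and 31.3% of excitatory neurons and 9.81% and 9.67% of astrocytes. Unthinned, these shares were 81.1% and 76.9%, 83.2% and 82.2%, and 20.2% and 19.6%.

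Other nuclei of the lineage held less. Mature oligodendrocytes held 97.8 CPM (83.7 to 114) and 112 CPM (91.3 to 135) of Nmnat2, or 0.333 and 0.433 of the excitatory level beside a neuronal-transcript median of 0.380 and 0.314. The 93 nuclei of library 2 with markers of newly formed oligodendrocytes held 102 CPM (47 UMIs, 74.9 to 136), below the precursor interval. Library 1 had 5 such nuclei and no Nmnat2 UMI in them, which allows up to 161 CPM (3 counts).

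The lowest Nmnat2 levels lay near those of the neuronal transcripts. Astrocytes held 87.0 and 74.8 CPM, or 0.297 and 0.290 of the excitatory level, where the 12 neuronal transcripts had a median of 0.276 and 0.282. Endothelial nuclei stood at 0.3296 and 0.302 beside a median of 0.324 and 0.240, and microglia at 0.560 and 0.464 beside 0.549 and 0.508. Single neuronal transcripts varied widely, in mature oligodendrocytes from 0.174 to 2.22 in library 1 and from 0.184 to 2.36 in library 2. The part of neuronal transcripts in these Nmnat2 levels, that of mature oligodendrocytes included, was not tested. Expression by those nuclei is not claimed from them. Pericytes with smooth muscle stood at 0.457 and 0.727 beside 0.378 and 0.360, from 21 and 43 UMIs. Fibroblasts stood at 0.668 and 0.910 beside a median of 0.261 and 0.202, though single neuronal transcripts reached 1.44 and 1.19 there. Their 2 clusters held 172 and 247 CPM in library 1 and 196 and 279 CPM in library 2, the higher value each time in the cluster led by Bnc2 and Slc47a1.

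**Figure D3:**
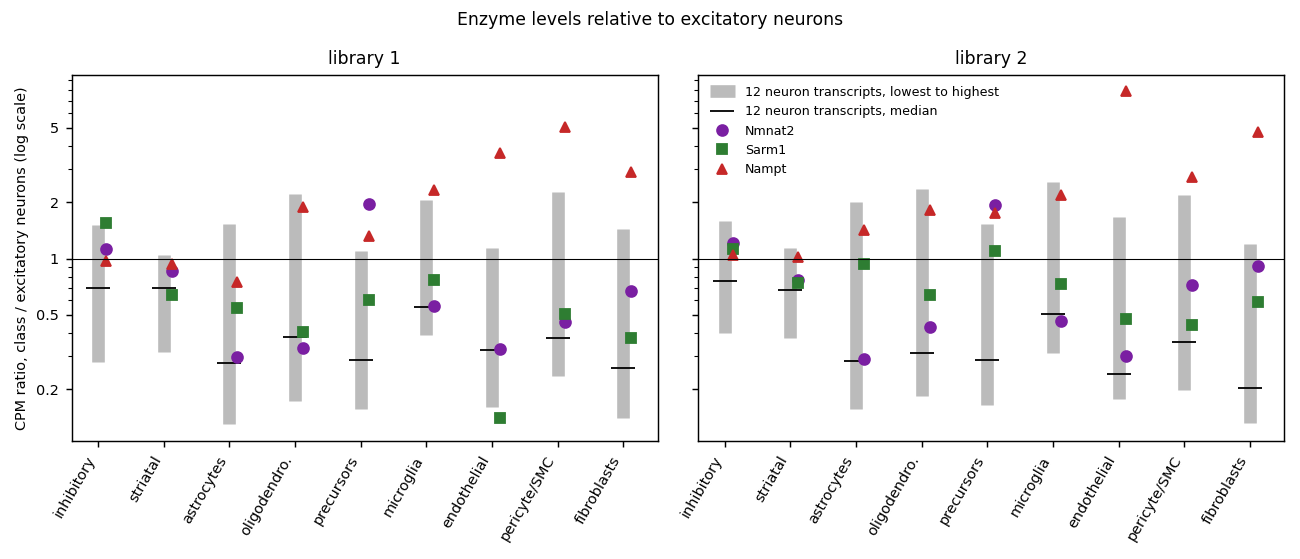
Ratio of a class's CPM to that of excitatory neurons (y axis, log scale) for Nmnat2, Sarm1 and Nampt in 9 classes (x axis), one panel per library. Grey bars span the lowest to highest ratio of 12 neuronal transcripts and the dash is their median. Nmnat2 lies near the dash in astrocytes, endothelial nuclei and microglia and far above it in precursors, at 1.95 and 1.94.

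Nmnat3, the mitochondrial synthase, was highest in striatal projection neurons at 42.0 CPM (115 UMIs, 34.7 to 50.4) and 31.8 CPM (52 UMIs, 23.8 to 41.7). That was 5.46 and 4.29 times the excitatory level of 7.69 and 7.42 CPM, and inhibitory neurons held 8.92 and 7.28 CPM. Astrocytes held 23.04 and 26.2 CPM, fibroblasts 23.5 and 22.0 CPM and microglia 21.3 and 21.7 CPM, and their intervals overlap one another. In library 2 they also overlap the striatal interval, and in library 1 so do those of microglia and fibroblasts. Pericytes with smooth muscle held 38.3 and 13.1 CPM from 6 and 3 UMIs and cannot be placed.

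Among excitatory neurons Nmnat3 differed more between clusters than any other enzyme with UMIs in every cluster of both libraries. The near-projecting cluster held 28.6 CPM (15.99 to 47.1) and 21.6 CPM (11.8 to 36.2). The middle-layer cluster held 1.65 CPM (5 UMIs, 0.535 to 3.84), and in library 2 0.696 CPM (2 UMIs, 0.0843 to 2.51), and upper-layer neurons 1.76 CPM (0.907 to 3.07) and 3.48 CPM (2.25 to 5.14). A cluster of 286 and 331 nuclei led by Npsr1, Parm1 and Tox, which took no subtype name, held 18.3 CPM (13.9 to 23.6) and 18.7 CPM (14.5 to 23.7). Deep-layer intratelencephalic neurons lay between, at 9.18 and 8.06 CPM. Nmnat3 was thus low in the upper-layer and middle-layer clusters and higher in the cluster named near-projecting in both libraries. The intervals do not overlap. A larger cluster of 263 and 274 nuclei was also led by Tshz2 and Vwc2l, as the near-projecting cluster was, but took no subtype name. The contrast is therefore not stated for near-projecting neurons as a type.

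**Figure D4:**
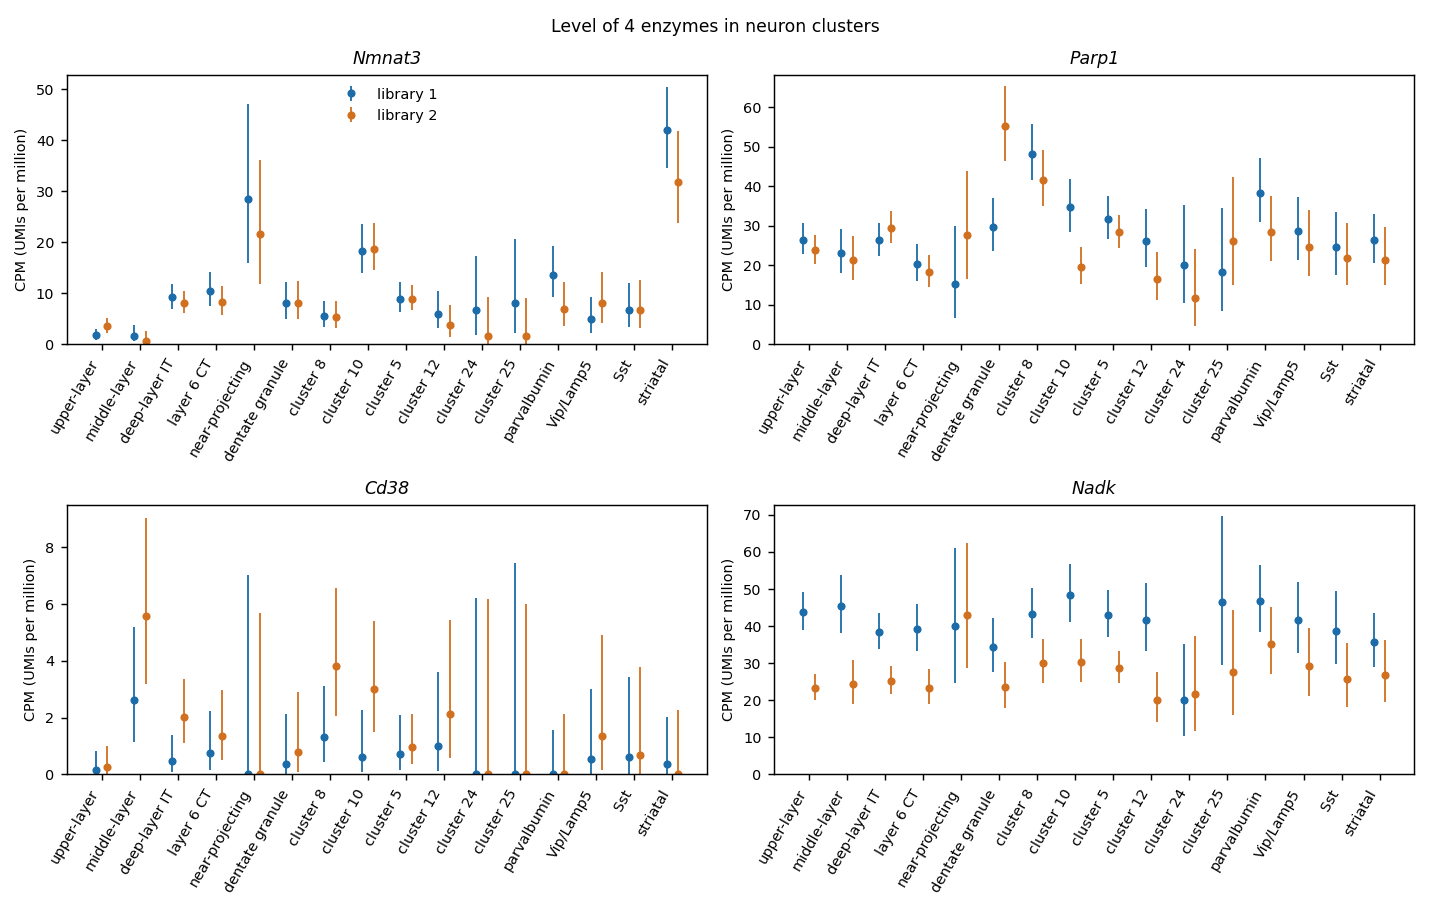
CPM of Nmnat3, Parp1, Cd38 and Nadk (y axis) in 12 excitatory, 3 inhibitory and the striatal clusters (x axis), library 1 in blue and library 2 in orange, with exact 95% Poisson intervals. Nmnat3 is high in the cluster named near-projecting and in the striatal cluster in both libraries.

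Nmnat1, the nuclear synthase, was sparse. Its fibroblast level was 15.7 CPM (10 UMIs, 7.52 to 28.9) beside 16.2 CPM (14 UMIs, 8.88 to 27.2). The library 1 level was 7.66 CPM with thinned nuclei and 7.64 CPM with nuclei weighted equally, and 2 of 174 thinned fibroblasts had a UMI beside 14 of 428 astrocytes. Astrocytes held 14.5 CPM (8.45 to 23.2) and 8.48 CPM (4.23 to 15.2). In excitatory neurons the level was 4.299 CPM (161 UMIs, 3.66 to 5.02) beside 3.08 CPM (126 UMIs, 2.57 to 3.67), below the fibroblast interval in each library. Most other intervals overlap, and pericytes with smooth muscle held 1 and 0 UMIs, the latter allowing up to 13.1 CPM (3 counts).

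NAD kinases make NADP, the cofactor of reductive synthesis and antioxidant defence. Nadk, the cytosolic kinase, was highest in astrocytes, at 93.9 CPM (110 UMIs, 77.2 to 113) and 67.9 CPM (88 UMIs, 54.4 to 83.6). Microglia held 63.8 and 41.6 CPM, endothelial nuclei 58.0 and 45.9 CPM, oligodendrocytes 48.9 and 40.0 CPM and fibroblasts 42.4 and 55.7 CPM. Excitatory neurons held 41.7 CPM (39.6 to 43.8) and 26.0 CPM (24.5 to 27.6), below the astrocyte interval in each library. Astrocytes and the next class overlap in both libraries.

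Nadk2, the mitochondrial kinase, had the widest spread among classes of the NAD kinases. The fibroblast level was 133 CPM (85 UMIs, 107 to 165), and in library 2 186 CPM (160 UMIs, 158 to 217), which was 10.4 and 18.3 times the excitatory level of 12.9 and 10.1 CPM. Astrocytes came next at 61.4 CPM (48.1 to 77.4) and 73.3 CPM (59.3 to 89.6). Both intervals lay above those of neurons, and the fibroblast interval lay above those of all 9 other classes in each library. Oligodendrocytes held 30.7 and 37.9 CPM, endothelial nuclei 15.8 and 15.9 CPM and precursors 18.9 and 16.2 CPM.

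The fibroblast level came mainly from 1 cluster. The cluster led by Ranbp3l, Slc6a20a and Ptgds held 183 CPM (79 UMIs in 107 nuclei, 145 to 229), and in library 2 293 CPM (137 UMIs in 108 nuclei, 246 to 346). The cluster led by Bnc2 and Slc47a1 held 29.1 CPM (10.7 to 63.2) and 58.4 CPM (37.0 to 87.6). The intervals do not overlap in either library. The class level depended on how the class was drawn: without a mitochondrial limit the fibroblast class kept 79 and 86 nuclei with 25.4 and 53.2 CPM of Nadk2. In that setting the pericyte class had 185 and 211 nuclei with 120 and 149 CPM. With doublets kept, the fibroblast level was 105 and 153 CPM.

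Nnt, the proton-pumping transhydrogenase of the inner mitochondrial membrane, was nearly uncounted. The table has 2 entries for it, ENSMUSG00000025453 with 24 UMIs and ENSMUSG00000116207 with 0. The latter spans chr13:119335528-119408952 inside the former on the same strand, and 100% of its 3339 exonic bases are shared. Whether molecules that matched both entries were discarded is not given in the sources used here, so the counts are uncertain. The C57BL/6J substrain is known to carry a deletion in Nnt, and the labels name no substrain. The part of either in the low count was not tested. Of the 20 UMIs in the compared classes 14 were in excitatory neurons of library 1, where excitatory neurons of library 2 had 0. The highest class of Nnt, microglia in library 1 with 3 UMIs and striatal projection neurons in library 2 with 1, is therefore not interpretable.

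Sarm1, the NAD glycohydrolase of axons, was highest in inhibitory neurons in both libraries when all UMIs were summed, but not after thinning. In library 1 inhibitory neurons held 19.4 CPM (113 UMIs, 15.98 to 23.3), excitatory neurons 12.6 CPM (471 UMIs, 11.5 to 13.8) and striatal projection neurons 8.03 CPM (5.03 to 12.2). In library 2 these were 11.1 CPM (52 UMIs, 8.31 to 14.6), 9.86 CPM (8.92 to 10.9) and 7.35 CPM (3.80 to 12.8), and the 3 intervals overlap. Precursors of library 2 held 10.8 CPM from 6 UMIs, so the order there is not settled. In nuclei thinned to 1500 UMIs excitatory neurons held 13.3 and 10.4 CPM and inhibitory neurons 12.98 and 8.71 CPM, and striatal projection neurons of library 2 held 11.5 CPM from 4 UMIs. Endothelial nuclei held 1 and 5 UMIs, 1.76 CPM (0.0445 to 9.79) and 4.69 CPM (1.52 to 10.9). Outside neurons Sarm1 ranged from 0.140 of the excitatory level in endothelial nuclei of library 1 to 1.10 in precursors of library 2, from 1 to 12 UMIs a class. The neuronal-transcript medians were 0.324 and 0.286 in those samples of nuclei, and the part of neuronal transcripts in these few UMIs was not tested. Among excitatory clusters the range was 8.39 to 24.3 CPM in library 1 and 7.77 to 16.8 CPM in library 2, and neither the lowest nor the highest cluster was the same in both.

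Parp1, the polymerase that builds poly(ADP-ribose) chains at DNA breaks and can be the main drain on nuclear NAD, was nearly even. Its class levels ran from 18.9 CPM in precursors to 31.4 CPM in inhibitory neurons in library 1, and from 19.7 CPM in fibroblasts to 36.2 CPM in microglia in library 2. The highest was 1.66 and 1.84 times the lowest, and in both libraries the interval of every class overlaps that of the highest. Excitatory neurons held 28.8 CPM (27.1 to 30.6) and 27.3 CPM (25.7 to 28.9). Within them, cluster 8 took no subtype name and was led by Shisa6 and Pkp2. Its level was 48.2 CPM (181 UMIs, 41.5 to 55.8), and in library 2 41.6 CPM (141 UMIs, 35.0 to 49.1), above the upper-layer neurons at 26.5 CPM (22.8 to 30.6) and 23.8 CPM (20.4 to 27.7). Dentate granule neurons held 29.7 CPM (23.5 to 37.1) in library 1 and 55.2 CPM (46.4 to 65.3) in library 2.

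Cd38, the membrane NAD glycohydrolase and cyclic ADP-ribose synthase, was sparse in neurons. The excitatory level was 0.748 CPM (28 UMIs, 0.497 to 1.08), and in library 2 1.81 CPM (74 UMIs, 1.42 to 2.27). Inhibitory neurons held 0.343 and 0.642 CPM, and precursors had no UMI, which allows up to 5.66 and 5.40 CPM (3 counts). Astrocytes had 15.4 CPM (18 UMIs, 9.10 to 24.3), and in library 2 26.2 CPM (34 UMIs, 18.2 to 36.6), which was 20.5 and 14.5 times the excitatory level. They were the only class with more than 10 Cd38 UMIs in both libraries apart from excitatory neurons.

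Endothelial nuclei, microglia and fibroblasts held Cd38 mainly in library 2. The endothelial level was 5.27 CPM (3 UMIs, 1.09 to 15.4) in library 1, set against 37.5 CPM (40 UMIs, 26.8 to 51.0) in library 2. The microglial level was 1.93 CPM (1 UMI, 0.0489 to 10.8) in library 1, set against 27.2 CPM (15 UMIs, 15.2 to 44.8) in library 2. The fibroblast level was 3.14 CPM (2 UMIs, 0.380 to 11.3) in library 1, set against 22.0 CPM (19 UMIs, 13.3 to 34.4) in library 2. The CPM intervals of the libraries do not overlap in any of the 3 classes. By nuclei, 3 of 157 endothelial nuclei in library 1 had a Cd38 UMI and 32 of 290 in library 2, with at most 3 UMIs in a nucleus. In microglia it was 1 of 232 and 8 of 225, and in fibroblasts 2 of 175 and 10 of 188, with up to 4 UMIs in a nucleus of library 2 in each class. No precursor had one, 0 of 132 and 0 of 156, at median depths of 3600 and 3389 UMIs beside 2490 and 2628.5 in endothelial nuclei. Within fibroblasts all 19 UMIs of library 2 lay in the cluster led by Ranbp3l and Ptgds, at 40.6 CPM (24.4 to 63.4), the cluster that also held most Nadk2. With thinned nuclei the endothelial levels were 9.20 and 33.6 CPM and the microglial ones 3.75 and 18.5 CPM. The thinned shares of nuclei with a Cd38 UMI overlap between the libraries in all 3 classes: 1.38% (0.167 to 4.89) and 4.32% (2.25 to 7.42) in endothelial nuclei, 0.562% (0.0142 to 3.09) and 1.85% (0.507 to 4.67) in microglia, and 0% (0 to 2.10) and 2.15% (0.589 to 5.41) in fibroblasts. Without a mitochondrial limit the fibroblast class had 0 Cd38 UMIs in both libraries and the pericyte class had 4 and 31. Among excitatory neurons the middle-layer cluster was the highest, at 2.64 and 5.57 CPM.

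Differences between the libraries within a class were named where CPM differed at least 1.5-fold and each library had at least 20 UMIs. Of 44 pairs of enzyme and class, 2 were higher in library 2 and 3 were lower. The shares of all genes higher and lower by that fold were 9.52% and 21.4% in excitatory neurons, 5.14% and 17.2% in inhibitory neurons, 5.2% and 15.5% in striatal projection neurons, 4.66% and 10.5% in astrocytes and 5.98% and 10% in oligodendrocytes. They were 3.86% and 8.49% in precursors, 5.53% and 8.17% in microglia, 5.36% and 17.7% in endothelial nuclei, 4.8% and 12.2% in pericytes with smooth muscle and 4.86% and 11.8% in fibroblasts. Without age labels the ratio says only how the libraries differ. Over all genes the median ratio of library 2 to library 1 was below 1 in every compared class, 0.849 in excitatory neurons, 0.872 in inhibitory neurons, 0.906 in endothelial nuclei and 0.961 in microglia.

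Nadk was lower in library 2 in excitatory neurons, with a ratio of 0.624 (0.577 to 0.675). It was lower in 10 of 12 excitatory and 3 of 3 inhibitory clusters. Such a count is not particular to Nadk: every other enzyme but Cd38 was lower in 7 to 11 of the 12 excitatory clusters, and Nmnat1, Nmnat2, Sarm1 and Parp1 were lower in 3 of 3 inhibitory clusters. In microglia the Nadk ratio was 0.653 (0.366 to 1.15), an interval that includes 1. Sarm1 in inhibitory neurons had a ratio of 0.574 (0.405 to 0.804). With thinned nuclei the ratio was 0.671, from 14 and 8 UMIs, which meets neither the fold nor the UMI minimum.

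Nampt in endothelial nuclei was higher in library 2, with a ratio of 1.73 (1.23 to 2.47). The ratio was 1.34 with nuclei weighted equally, at 74.4 and 99.9 CPM, and 1.1996 with thinned nuclei, at 92.0 and 110 CPM, so the fold was below 1.5 in both. Cd38 in excitatory neurons had a ratio of 2.42 (1.55 to 3.89). It was higher in library 2 in 9 of 12 excitatory clusters and lower in 0, and 1 nucleus of library 2 held 10 of its 74 UMIs. The Cd38 ratios of 7.11 (2.26 to 35.9) in endothelial nuclei, 14.1 (2.16 to 592) in microglia and 7.02 (1.69 to 62.2) in fibroblasts rest on 3, 1 and 2 UMIs in library 1, below the minimum.

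**Figure D5:**
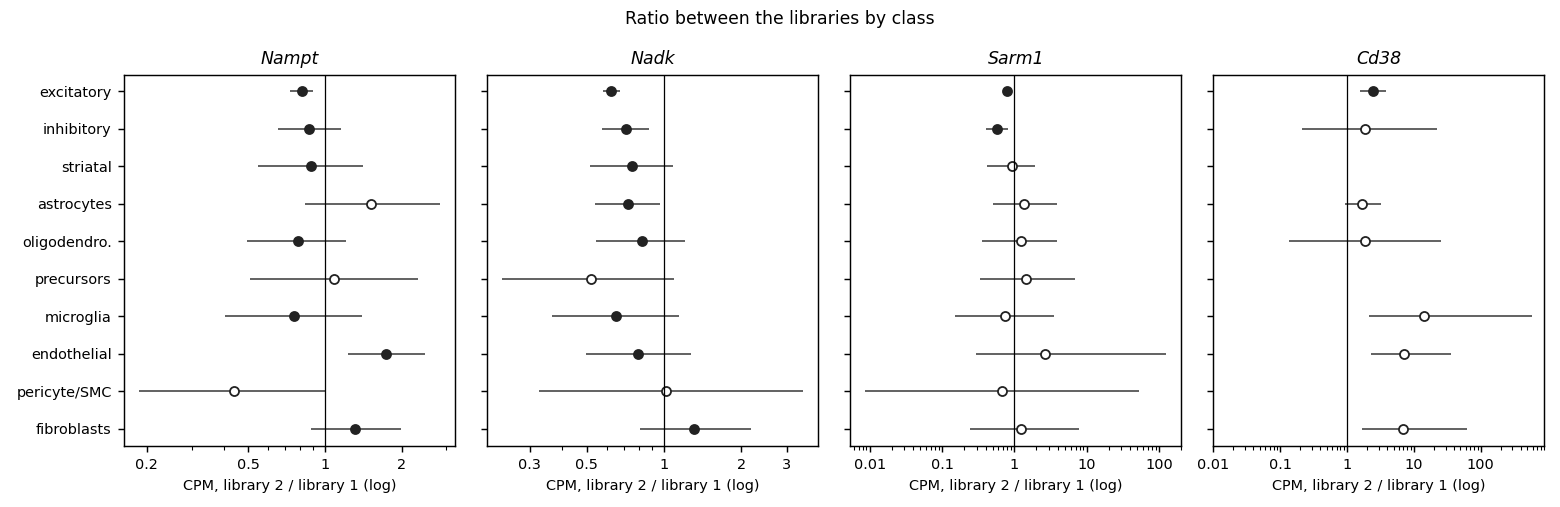
Ratio of CPM in library 2 to library 1 (x axis, log scale) for Nampt, Nadk, Sarm1 and Cd38 in each class (y axis), with exact 95% intervals. Filled points have at least 20 UMIs in each library, open points fewer, and classes with no UMI in a library are left out. Nadk lies to the left of 1 in the neuron classes and Cd38 to the right of 1 in every class drawn.

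The other genes of these pathways were counted by the class with their highest level, taken from lists of genes that share a role. No list was tested against the share of all genes. Single genes are given in the class highest over both libraries together. Another class led in 1 library for Parp8, Tnks, Me1, Macrod1, Nudt12, Slc25a51, Slc12a8, Stmn2 and Skp1a, among others. Of 15 polymerases that transfer ADP-ribose, all measured, 9 were highest in a vascular class in library 1 and 10 in library 2, beside 1 and 0 in a neuron class. All-gene shares were 43.1% and 42.4% for vascular classes and 18.8% and 15.5% for neuron classes. Tnks2, a tankyrase, held 212 CPM (178 to 251) and 196 CPM (168 to 228) in fibroblasts and at its lowest, in striatal projection neurons, 82.5 and 56.9 CPM. Pericytes with smooth muscle had 211 and 244 CPM of Parp8, and Tnks held 137 and 186 CPM in microglia.

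Of 9 genes around NADP, 7 were highest in a glial class in library 1 and 4 in library 2, beside 38.1% and 42.1% of all genes. The 7 include Nnt, from 3 UMIs in microglia. Me3, the mitochondrial malic enzyme, was highest in striatal projection neurons, at 646 CPM (617 to 677) and 480 CPM (447 to 515), the class that also led for Nmnat3. Me1, the cytosolic malic enzyme, held 57.2 and 105 CPM in astrocytes. Of 7 measured genes of the salvage list, the members included, 4 and 3 were highest in a vascular class, beside 43.1% and 42.4% of all genes. Nt5e, which splits extracellular nucleotides, held 39.2 CPM (25.4 to 57.9) and 51.0 CPM (37.1 to 68.5) in fibroblasts.

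Of 5 measured genes that remove ADP-ribose, 2 and 1 were highest in a neuron class, beside 18.8% and 15.5% of all genes. Macrod2 held 2093 and 2388 CPM in striatal projection neurons and 520 and 606 CPM in endothelial nuclei, and Parg, which degrades the polymer, 125 and 109 CPM in oligodendrocytes. Macrod1 held 47.2 and 95.4 CPM in precursors. All 3 genes of nicotinamide clearance and NAD breakdown were highest in a vascular class in both libraries, beside 43.1% and 42.4% of all genes. Nnmt reached only 4.35 CPM (0.110 to 24.2), in pericytes with smooth muscle of library 2. Aox1, an aldehyde oxidase, held 129 CPM (102 to 160) and 117 CPM (95.4 to 142) in fibroblasts, and Nudt12 7.03 and 14.1 CPM in endothelial nuclei.

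Of 4 measured transporters, 3 were highest in a glial class in each library, beside 38.1% and 42.1% of all genes. Slc25a51, the mitochondrial NAD carrier, held 69.9 and 42.1 CPM in oligodendrocytes, Slc12a8 5.27 and 26.2 CPM in endothelial nuclei and Slc29a1, a nucleoside carrier, 25.1 and 19.9 CPM in microglia. Synthesis from tryptophan and nicotinic acid was sparse: none of its 8 measured genes reached 10 CPM in any class. The highest was Kmo at 9.28 CPM in fibroblasts of library 2, with Nadsyn1 at 8.12 CPM there and Kynu at 5.80 CPM in microglia of library 1. Of the 11 listed genes Afmid, Qprt and Naprt fell below the minimum of 20 UMIs. Of 6 genes that act with SARM1 and NMNAT2 in axon degeneration, 2 and 1 were highest in a neuron class, beside the same 18.8% and 15.5%. Mycbp2, a ubiquitin ligase that removes NMNAT2, held 684 and 788 CPM in microglia and 462.5 and 440.3 CPM in astrocytes. In microglia the 12 neuronal transcripts had a median of 0.549 and 0.508 of their excitatory level, with single ones up to 2.05 and 2.56. Their part in the Mycbp2 level was not tested. Stmn2 held 129 and 159 CPM and was one of the neuronal genes seen in microglia, the glial class with most neuronal transcripts, and Skp1a was at 70.3 and 60.9 CPM among pericytes with smooth muscle.

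The genes whose class pattern was most like each enzyme were taken by Pearson correlation of log2(CPM + 1) over 20 points, 10 classes in 2 libraries, among 13452 genes. The points share libraries and depth, and the values are a description. Nadk2 was most like Igfbp5 (0.952), Gja1 (0.887) and Efemp1 (0.885), Nampt most like Btbd7 (0.935), Phf3 (0.931) and AW554918 (0.922), and Nmnat2 most like Mmp16 (0.907), Sgcd (0.892) and Smarca1 (0.888). Nmnat1 was most like N4bp2 (0.888), Decr1 and Wbp1l, Nadk most like Cs (0.859), Tmem129 and Arsk, and Cd38 most like Tpcn1 (0.853), Dido1 and Cep85l. For Sarm1 they were Clec16a (0.850), 2810049E08Rik and Cacng8, for Nmnat3 Gli3 (0.784) and S100pbp, and for Parp1 Crmp1 (0.760), Rab6b and Gm26658. Tpcn1 encodes a lysosomal ion channel. Among the enzymes themselves the closest pair was Nmnat1 with Nadk2, at 0.713, and the most opposed Nmnat2 with Cd38, at -0.658. Nampt and Sarm1 stood at -0.629.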

How the data were processed

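The deposited file, 1 matrix for both samples, gives whole-number UMI counts, with Cell Ranger 3.1.0 named per the file headers. The submitters' processing notes name Cell Ranger 2.0.1, Seurat 3.1, R 4.0.2 and mm10, a conflict not settled. Annotation, intron handling and cell calling: not given in the sources used here. Libraries held 58108297 and 60547146 UMIs over 8914 and 8587 barcodes.

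Nuclei with 200 genes or more, at most 5% mitochondrial UMIs and a scrublet score under 0.2 (scanpy 1.11.5) were kept. The automatic doublet threshold marked 0 and 2 barcodes and so had not worked. The limit of 0.2 was set after scores were seen and applied to 305 and 332 barcodes. Leiden clusters (resolution 1, 2000 variable genes, 30 components, 15 neighbours, seed 1) did not use the enzymes. A cluster was named with 3 markers at 0.25 of their maximum, a mean of 0.33 and a lead of 1.2. Between related lists no lead was needed, and the one with more markers among the leading genes gave the name. Microglia, whose markers tied with those of perivascular macrophages, were named so. Shallow clusters, under 0.5 of the median UMIs with no own marker in their top 10, stayed unnamed, which kept 533 and 736 nuclei out of excitatory neurons. These limits were set after clusters were seen.

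UMIs were summed per class and library and scaled to CPM. All 10 enzymes are named, with the 3 highest genes of every list (in the class highest over both libraries together) and the 3 most alike genes of enzymes with 200 UMIs or more. Of these, 1 gene is not reported here. Cluster values beyond these were chosen after they were seen. Members and lists were chosen with earlier results of these data known. Calculations were tested on simulated data. Alternatives were doublets kept or limited at 0.15, no mitochondrial limit or 1%, resolution 2, a shallow-cluster limit of 0.33, equal weights per nucleus, thinning to 1500 UMIs and no UMI minimum. Leaving out oligodendrocytes, microglia or Nnt was added after the data were seen.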

Additional observations from a re-analysis of the deposited data

How the results depend on the processing

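The counts of enzymes highest in a neuron, glial or vascular class, and of those with the same highest class, stayed within 1.5 times their value under the alternatives tried, with these exceptions: without a mitochondrial limit 1 enzyme, in place of 3, was highest in a glial class of library 2, and with nuclei weighted equally 5, in place of 3, were highest in a vascular class of library 1. The first of these settings named no precursor class. A mitochondrial limit of 1% named no precursors, microglia, pericytes or fibroblasts, and resolution 2 no oligodendrocytes. An enzyme highest in a class that a setting lacks must move to another class. A change of 1 in these counts stayed within the limit of 1.5 times. A count within it therefore does not show that the same enzymes led in the same classes. Levels were also followed in the class highest over both libraries together, which is not always the highest class of a library. For Parp1 it was pericytes with smooth muscle, which led in neither library. Of these levels, 0 of 20 moved beyond their counting interval at resolution 2 and at a doublet limit of 0.15. Some intervals are wide, such as 6.96 to 65.4 CPM for that Parp1 level in library 1, and a level can hardly leave them. With doublets kept 3 of 20 moved, when thinned 2 of 20 and with equal weights 1 of 20. Without a mitochondrial limit 2 of 18 moved, and at 1% 4 of 10. Those at 1% include Nadk in astrocytes, at 69.4 and 98.8 CPM, the opposite order of the libraries. The low-depth limit of 0.33 could change only the excitatory class, which holds none of these levels. Its 0 of 20 was thus fixed in advance and says nothing about them. With doublets kept, Nmnat2 in precursors of library 2 was 443 CPM. Depth limits Nmnat1, Cd38 and Nnt most. No paired analysis was possible because no column carries a replicate number and each library stands alone.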
